A study of Mus musculus with 24 samples.

Results

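Bone marrow of wild-type mice was profiled 12 hours after the dioxin TCDD, and this account covers the 3 arrays of that group among the 24 arrays of the series. The arrays were chosen by their labels: wild type, TCDD, 12 hours, bone marrow. Every group compared here came from female C57BL/6j mice aged 6 weeks, injected intraperitoneally. The TCDD group (3 arrays) received TCDD, the DMBA group (3 arrays) received 7,12-dimethylbenz[a]anthracene for 12 hours, and the oil group (3 arrays) received olive oil alone, with no time stated. The labels repeat one dose, 50 mg/kg, for every treatment, and whether it applies to TCDD could not be checked. Each array carried RNA from 9 pooled samples, which may or may not mean 9 mice. The sample was labelled with Cy3 and a common pool of marrow RNA from oil-treated wild-type mice with Cy5, without dye swaps. Values below are log2 of Cy3 over Cy5, so 0 means equal to that pool, and a change is the TCDD mean minus the other group's mean. The p-values measure the spread between these pooled samples, which may be technical.

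TCDD is a stable ligand of the aryl hydrocarbon receptor (AhR), a cytosolic transcription factor that moves to the nucleus when bound, pairs with Arnt and binds DNA sites with the core GCGTG. Its best known targets are the cytochromes Cyp1a1, Cyp1a2 and Cyp1b1 and the receptor's own repressors Ahrr and Tiparp. DMBA is a polycyclic hydrocarbon that also binds AhR, and Cyp1b1 turns it into metabolites that bind DNA. Bone marrow holds red cell, platelet, granulocyte and B cell precursors at many stages, and B cell precursors are among the cells that DMBA is known to kill.

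The arrays were limited in 3 ways that touch every value below. Oil replicate 1 had a log-ratio SD of 1.10, against 0.187 to 0.633 on the other 23 arrays, and its reference channel held liver transcripts. Oil replicates 2 and 3 therefore served as the oil group, and values with replicate 1 are given beside some of the genes described in full. Of the 123 named calls, 55 passed with it, 60 did not pass and 8 changed sign. The log ratios of these 2 oil arrays correlated with r = 0.129 across genes, against 0.415 to 0.639 between TCDD arrays. All 3 TCDD arrays lay on one slide that held no other group, so no slide compares TCDD with oil. An effect of that slide and an effect of TCDD cannot be told apart, and a random block for slide does not separate them. Entering slide as such a block gave an estimated correlation within slides of 0.332. Cy3 was well above background for 38.3% of probes on TCDD replicate 1, 64.3% on replicate 2 and 59.9% on replicate 3. On oil replicates 2 and 3 the shares were 84.8% and 45.8%. Among genes called below, Alox12, Cdh5, Cyp51, Il5ra, Mmrn1, Per2, Slc7a11 and Zap70 were well above background on 2 of 3 TCDD arrays. Igfbp5 was so on 1 of 3 TCDD arrays, and Hic1 and Mup1 on 1 of the 2 oil arrays. At the bright end, 148 of the 24389 genes tested had a saturated spot in either channel on these 5 arrays. Of these, 59 were called higher after TCDD and 2 lower, and their log ratios are inexact because a saturated signal is capped. Of 62 named genes with several probes tested, 25 had probes of both signs, and values below are those of the brightest probe. Some genes called lower below had another probe higher: Apaf1 (0.07), Cdk1 (0.35), Fosl2 (0.23), Myb (0.19) and Per2 (0.41). So had Polk (0.43), Rps9 (0.33), Slamf1 (0.48) and Tef (0.53). Hspa4l, called higher, had a probe at -0.68. These opposite probes did not pass, but the direction of such genes rests on the probe chosen. Other genes had a further probe of the same sign but near 0, among them Hsf1 (0.16), Ccng1 (-0.10), Cr2 (0.12) and Dek (0.10). The sizes given for them rest on the probe chosen.

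Markers of the main marrow cell types were well above background on all arrays of both groups, except that only 3 of the 4 megakaryocyte markers were so on all TCDD arrays. The 6 neutrophil markers lay at a median percentile of 99.5 to 99.7 of Cy3 signal on the TCDD arrays and 99.8 to 99.9 on the oil arrays. The 4 erythroid markers lay at 94.2 to 94.7 after TCDD and 93.8 to 94.5 after oil, and the 6 B cell markers at 83.6 to 84.9 and 80.5 to 82.1. None of the 4 liver markers was well above background on all arrays of either group. The 4 megakaryocyte markers lay at 69.5 to 79.5 after TCDD and 86.9 to 87.4 after oil, with 1 of the 4 called. The 5 monocyte and macrophage markers lay at 82.8 to 83.9 after TCDD and 75.8 to 76.3 after oil, with 1 of the 5 called. The 3 T cell markers lay at 67.5 to 74.5 after TCDD and 63.4 to 67.3 after oil (1 called), and the 4 muscle markers at 30.8 to 41.7 and 30.7 to 46.8. Percentiles of Cy3 signal and log ratios can differ: the B cell markers had a median change of -0.17, with 2 of the 6 called. In whole marrow, fewer cells of a type and less RNA per cell cannot be told apart.

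Against oil, 3021 of 24389 genes passed the test (12.4%), of which 1118 were higher after TCDD (4.58% of genes tested) and 1903 were lower (7.8%). These shares are the background for every list count against oil below. The test was limma's moderated test with Benjamini-Hochberg adjustment at 0.05, fitted over 23 arrays, and all adjusted p-values below come from it. Its error estimate is shared by all these arrays. Besides the groups compared, they held wild-type marrow after benzo[a]pyrene and treated and oil-treated marrow of Cyp1b1-null, Cyp1a1-null and double-null mice. Fitted on the groups compared alone, 0 genes passed. From the scanner's processed signals the split was 1393 higher (5.71%) and 1525 lower (6.25%), 12% of genes in all. The scanner software's background method was code 5 on all 3 TCDD arrays and code 7 on oil replicates 2 and 3 and the DMBA arrays. In processed signals the method and the treatment cannot be told apart. Treating slide as a random block left 278 genes (1.14%), 55 higher (0.226%) and 223 lower (0.914%). Adding oil replicate 1, 1408 genes passed (5.77%), 283 higher (1.16%) and 1125 lower (4.61%). Background parameters from all spots gave 1505 genes (6.17%), 546 higher (2.24%) and 959 lower (3.93%). Over all genes, 18.7% lay higher on all 3 TCDD arrays than on both oil arrays, and 19.7% lay lower. Without oil replicate 3, 205 genes passed, and without TCDD replicate 1, 1376. Of the 123 named genes that passed against oil, 19 still passed without oil replicate 3. Some calls that held in all 5 fits leaving out one array each are marked as such below.

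**Figure D1:**
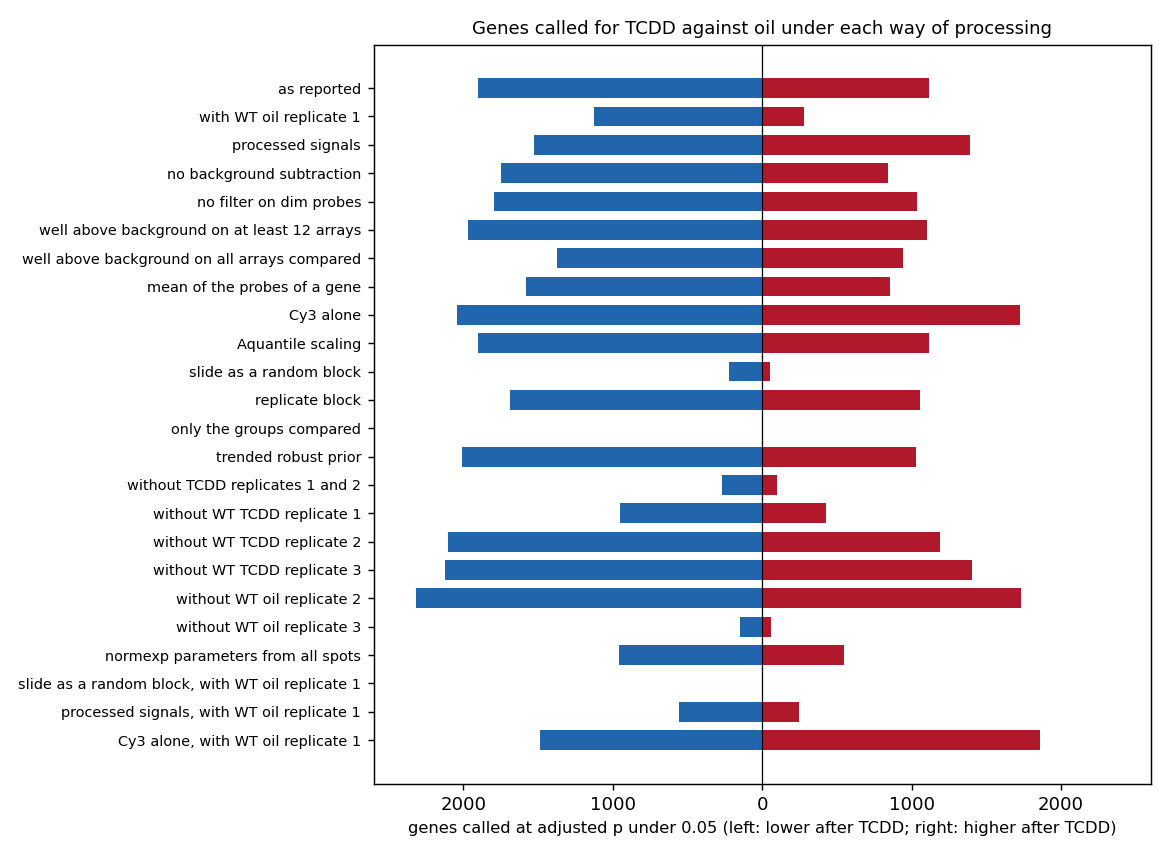
Number of genes passing the test for TCDD against oil under each processing setting, with bars to the right for genes higher after TCDD and to the left for genes lower. The setting as reported gave 1118 higher and 1903 lower genes, and the count fell to 278 with slide as a random block and to 205 without oil replicate 3.

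The AhR battery held 24 measured genes, of which 3 rose after TCDD and none fell. Cyp1a1, the hydrocarbon-oxidising cytochrome used as the standard readout of AhR, was at 0.87, 1.61 and 1.63 on the TCDD arrays, against -0.12 and 0.48 on the oil arrays. Every TCDD array lay above both oil arrays, and the change was 1.19 (SE 0.23, adjusted p = 0.007), passing in all 5 leave-one-out fits. Cy3 signal cleared background well on 2 of 3 TCDD arrays and on neither oil array. By Cy3 signal alone, without the reference channel, it was 1.81-fold higher with oil set no lower than the background limit. This is not a strict bound, because the TCDD mean includes an array that was not well above background. Cy3 folds and bounds given below for other genes set the dimmer group no lower than that limit in the same way. Log2 changes given for Cy3 alone are a different measure: the scanner's processed Cy3 signal, scaled between arrays and with no such limit. From processed signals the change was 2.57, which did not pass (adjusted p = 0.13), and the adjusted p was 0.0612 with slide as a block.

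Spint1, a membrane inhibitor of serine proteases, gave the largest change in the battery. It was at 1.66, 2.67 and 2.37 after TCDD, against -0.05 and 0.85 after oil. The groups did not overlap, and the change was 1.83 (SE 0.28, adjusted p = 0.00188), passing in all 5 leave-one-out fits and with slide as a block (adjusted p = 0.0223). Oil replicate 1 was at 2.67, level with the highest TCDD array, and with it the change was 1.07 (adjusted p = 0.14). Hic1, a transcriptional repressor, rose by 1.04 (SE 0.30, adjusted p = 0.0335), at 0.49, 1.54 and 1.25 after TCDD against -0.05 and 0.15 after oil. It passed in only 1 leave-one-out fit, and its adjusted p with slide as a block was 0.154. None of the 3 passed when background parameters were fitted on all spots, where the changes were 0.44 for Cyp1a1, 0.87 for Spint1 and 0.50 for Hic1.

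The bases just before the transcript starts of these genes show where the AhR core lies. Each is the 250 bases upstream in RefSeq's GRCm38.p6, 5′ to 3′ on the gene's strand, with GCGTG, or CACGC where the core is on the other strand, in capitals. Spint1 is at chr2:119237110-119237359 (+), Cyp1a1 at chr9:57697363-57697612 (+) and Ahrr at chr13:74292332-74292581 (-). Spint1 and Ahrr hold the core 3 times each and Cyp1a1 once.
Spint1: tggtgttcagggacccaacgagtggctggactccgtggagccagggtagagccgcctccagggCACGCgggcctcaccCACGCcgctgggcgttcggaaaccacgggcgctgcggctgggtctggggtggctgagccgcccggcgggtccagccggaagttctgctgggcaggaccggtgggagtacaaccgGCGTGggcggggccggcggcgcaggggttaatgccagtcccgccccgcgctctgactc
Cyp1a1: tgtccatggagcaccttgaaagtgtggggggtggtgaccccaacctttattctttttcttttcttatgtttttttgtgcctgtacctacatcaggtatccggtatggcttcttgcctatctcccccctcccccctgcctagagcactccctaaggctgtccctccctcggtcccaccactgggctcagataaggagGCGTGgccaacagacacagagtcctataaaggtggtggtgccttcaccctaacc
Ahrr: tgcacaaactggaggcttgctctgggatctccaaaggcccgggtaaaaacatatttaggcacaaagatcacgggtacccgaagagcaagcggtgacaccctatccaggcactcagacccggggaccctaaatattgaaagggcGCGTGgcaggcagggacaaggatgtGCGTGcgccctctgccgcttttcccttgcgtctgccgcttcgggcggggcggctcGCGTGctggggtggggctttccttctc
A core in the 300-base window (250 before the start and 50 after) was present in 12 of the 18 battery genes with a window (66.7%), against 46.5% of tested genes and 35.2% of all 27025 genes with a window. It was in 40.6% of genes higher after TCDD and in 53.9% of genes lower after TCDD. A match describes the letters only.

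The other receptor-pathway members did not pass. Ahrr, the AhR repressor, was at 0.19, 1.57 and 1.30 after TCDD against 0.16 and 0.79 after oil. The groups overlapped, with TCDD replicate 1 near the lower oil array, and the change was 0.55 (adjusted p = 0.291). From processed signals it was 2.34 (adjusted p = 0.026). Tiparp, which ADP-ribosylates AhR, was at 0.14, 0.63 and -0.04 after TCDD against 0.14 and 0.50 after oil, a change of -0.07 (adjusted p = 0.832). The receptor gene Ahr changed by 0.00 (adjusted p = 0.996) and its partner Arnt by -0.31 (adjusted p = 0.362).

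Cyp1b1, the cytochrome that activates DMBA, was at -0.01, -0.14 and -0.18 after TCDD against -0.05 and 0.58 after oil (adjusted p = 0.212). It did not pass, and it was well above background on no TCDD array and on 1 oil array. In Cy3 it was 1.13-fold lower, which is not a strict bound, and another Cyp1b1 probe gave 0.16. Processed Cy3 alone gave a Cyp1b1 change of -0.76, which did not pass. Cyp1a2 was well above background on no TCDD array either. Another Cyp1a2 probe was called lower (-0.70), as was another probe of the NRF2 gene Nfe2l2 (-0.67), while a further Nfe2l2 probe was at 0.53 and was not called. Nqo1, a quinone reductase shared by AhR and NRF2, was at 0.58, 0.12 and 0.19 after TCDD against 0.02 and -0.04 after oil. Its groups did not overlap, but the change of 0.30 did not pass (adjusted p = 0.222). The median change of the 24 genes was 0.06, beside 0.01 over all genes tested. Of the 24 genes, 13 were well above background on all 5 arrays.

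**Figure D2:**
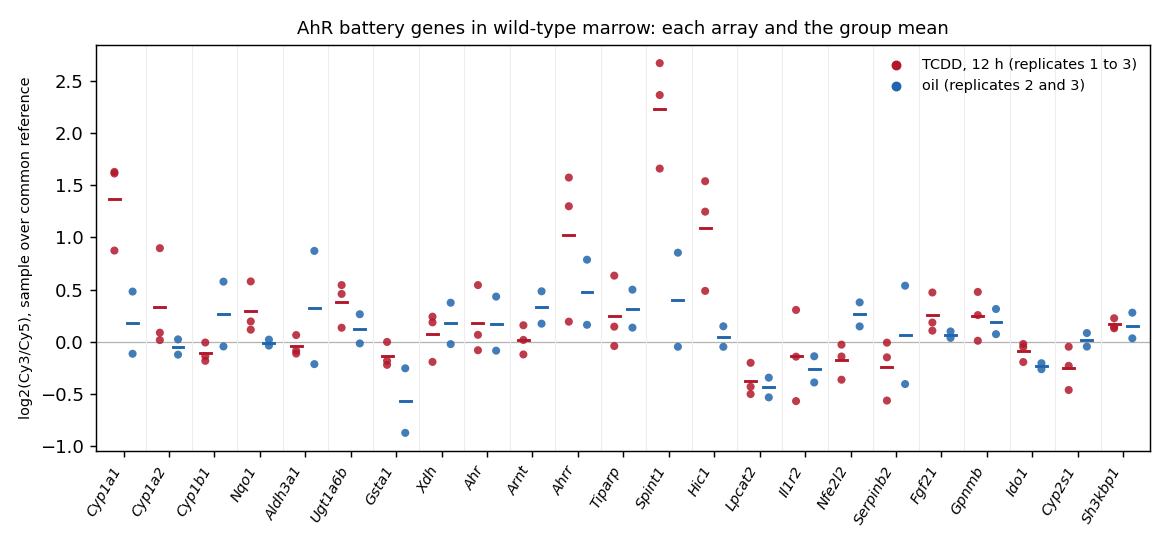
Log2 of Cy3 over Cy5 for measured genes of the AhR battery, one point per array with the group mean as a bar, TCDD arrays left of oil replicates 2 and 3. Cyp1a1, Spint1 and Hic1 sit higher on all 3 TCDD arrays than on oil replicates 2 and 3, and most other members mix.

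Heat shock genes held the largest rise among the genes named by rank. Of 20 measured chaperones and regulators, 6 rose and none fell (median change 0.23, and 0.43 with oil replicate 1). Hspa1a, an inducible HSP70 chaperone, was at 3.16, 3.15 and 2.58 after TCDD against -0.10 and -0.11 after oil. All TCDD arrays lay far above both oil arrays, and the change was 3.07 (SE 0.45, adjusted p = 0.00148), passing in all 5 leave-one-out fits and with slide as a block (adjusted p = 0.0206). Oil replicate 1 was at 2.95, and with it the change was 2.05 (adjusted p = 0.066). The twin gene Hspa1b was at 2.22, 2.66 and 2.03 after TCDD against 0.24 and 0.13 after oil, a change of 2.12 (SE 0.39, adjusted p = 0.00484). Oil replicate 1 was at 0.44 there, and Hspa1b passed with it (2.04, adjusted p = 0.0062). Without oil replicate 3 the change was 2.07 and did not pass.

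Hspa1a and Hspa1b are near-identical copies, so their probes may share signal. Their upstream windows, at chr17:34972157-34972406 (-) and chr17:34959239-34959488 (-), matched at 247 of 250 bases. They are shown as above, with the heat shock element core in capitals, here GAANNTTC or TTCNNGAA, each of which reads alike on both strands.
Hspa1a: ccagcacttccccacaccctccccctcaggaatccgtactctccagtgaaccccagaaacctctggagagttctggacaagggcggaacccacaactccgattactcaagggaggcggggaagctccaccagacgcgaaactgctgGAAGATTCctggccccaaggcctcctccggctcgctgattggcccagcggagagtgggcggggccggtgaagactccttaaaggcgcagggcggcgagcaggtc
Hspa1b: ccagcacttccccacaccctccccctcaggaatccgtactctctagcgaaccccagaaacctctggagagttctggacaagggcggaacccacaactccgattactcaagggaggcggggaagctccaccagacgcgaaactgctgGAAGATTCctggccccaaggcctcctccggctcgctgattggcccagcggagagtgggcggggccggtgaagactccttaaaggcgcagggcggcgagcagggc
This motif, searched after the heat shock values were seen, lay in the window of 10 of 15 heat shock genes with one (66.7%). It lay in 15.1% of tested genes and in 14.8% of the genes higher after TCDD.

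Hsf1, the factor that drives these genes, rose by 1.14 (SE 0.29, adjusted p = 0.022), at 1.16, 1.08 and 0.36 after TCDD against 0.05 and -0.61 after oil. With oil replicate 1 the change of Hsf1 was 0.45 and did not pass, and another Hsf1 probe gave 0.16. The mitochondrial chaperonin Hspd1 rose by 0.69 (adjusted p = 0.0264). The inducible HSP90 gene Hsp90aa1 was also called higher, but its Cy5 signal was saturated on all 3 TCDD arrays and on no oil array. A capped Cy5 signal makes the log ratio read higher, so its change is inexact and may be overstated. The HSP110-family gene Hspa4l rose by 0.50 (adjusted p = 0.019). Hsph1 was at 0.72, 0.47 and 0.33 after TCDD against -0.36 and -0.57 after oil, and its change of 0.97 did not pass (adjusted p = 0.104). Bag3 at -0.24 (adjusted p = 0.491), Dnajb1 at -0.03 (adjusted p = 0.892) and Hspb1 at 0.06 (adjusted p = 0.916) did not pass either. Without oil replicate 3, 1 of the 20 passed, and with slide as a block, 2.

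Among NRF2 targets, 2 of 20 rose and 2 fell (median change -0.29, and 0.19 with oil replicate 1), beside 4.58% higher and 7.8% lower over all genes. Osgin1, an oxidative stress response gene, was at 0.70, 0.81 and 0.74 after TCDD against -0.30 and -0.80 after oil. The change was 1.30 (SE 0.21, adjusted p = 0.00242). It also passed with slide as a block, from processed signals and with oil replicate 1, but without oil replicate 3 (1.05) it did not. The ferritin heavy chain gene Fth1 was the other called higher. Its Cy5 signal was saturated on all 3 TCDD and both oil arrays and its Cy3 signal on 1 oil array, so no size is given. The cystine carrier Slc7a11 fell by 1.01 (adjusted p = 0.0257) and the peroxidase Prdx1 fell by 0.48 (adjusted p = 0.0448). Hmox1, heme oxygenase, at 0.40 (adjusted p = 0.273) and Gclm at -0.52 (adjusted p = 0.178) did not pass.

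Of 20 integrated stress response genes, 4 rose and 2 fell, with a median change of 0.18 that was -0.30 with oil replicate 1. Chac1, which degrades glutathione, was at 1.15, 0.97 and 1.44 after TCDD against 0.05 and -0.90 after oil. The groups did not overlap, and the change was 1.61 (SE 0.24, adjusted p = 0.00184), passing in all 5 leave-one-out fits, with slide as a block and with oil replicate 1. The stress transcription factors Ddit3 and Atf3 rose by 0.72 (adjusted p = 0.015) and 0.68 (adjusted p = 0.0345). The amino acid carrier subunit Slc3a2 rose by 0.56 (adjusted p = 0.0118). Cebpb, a myeloid transcription factor, fell by 0.78 (adjusted p = 0.0397), and its partner Cebpg fell by 0.55 (adjusted p = 0.0112). Without oil replicate 3, only Chac1 of these passed.

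**Figure D3:**
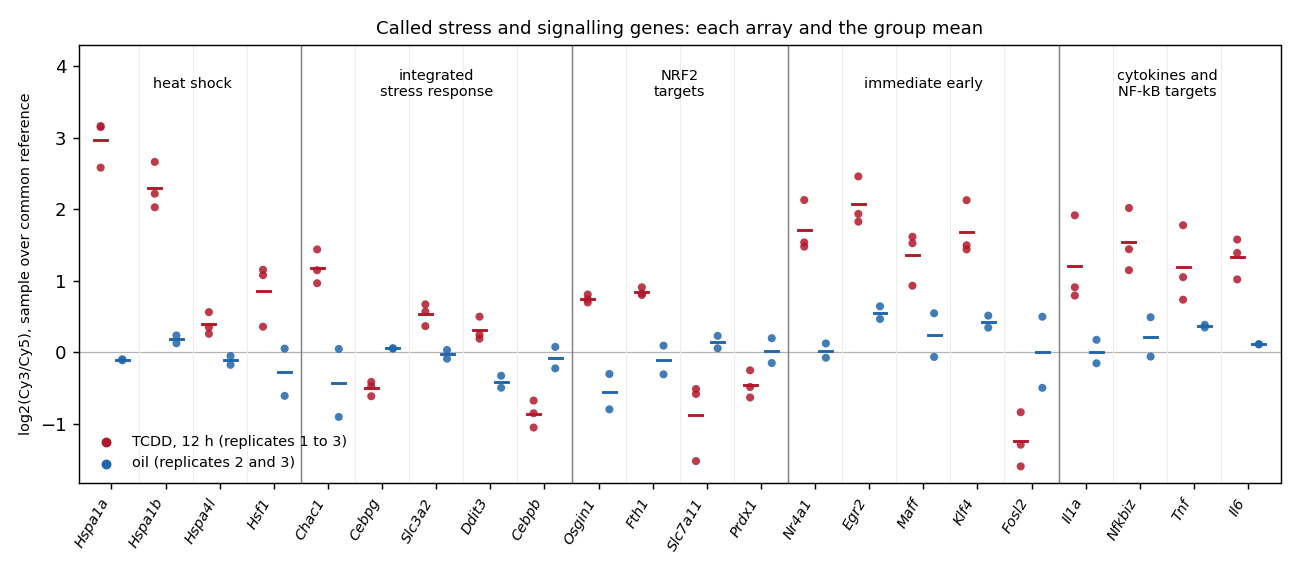
Log2 of Cy3 over Cy5 for called genes of the heat shock, integrated stress response, NRF2, immediate early and cytokine lists, one point per array with the group mean as a bar, TCDD arrays left of oil replicates 2 and 3. Hspa1a stands between 2.58 and 3.16 on the TCDD arrays and at -0.10 and -0.11 on oil replicates 2 and 3.

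Cytokine and early response genes rose in part. Of 23 cytokine and NF-kB target genes, 5 rose and none fell: Cxcl2, Nfkbiz, Il6, Il1a and Tnf. Their median change of 0.42 was -0.21 with oil replicate 1, where 1 of the 23 passed, and without oil replicate 2 or 3 none passed. None of the 23 passed with slide as a block. Cxcl2, a neutrophil chemokine, was at 1.45, 3.08 and 1.88 after TCDD against 0.23 and 0.64 after oil. The change of 1.70 (SE 0.54, adjusted p = 0.0492) was lost in every leave-one-out fit. The interleukin Il1a was at 0.80, 1.92 and 0.91 after TCDD against -0.15 and 0.18 after oil, a change of 1.20 (SE 0.28, adjusted p = 0.0161). Its signal cleared background well on 2 TCDD arrays and 1 oil array. The NF-kB cofactor Nfkbiz rose by 1.32 (adjusted p = 0.0207) and Tnf by 0.82 (adjusted p = 0.0366).

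Of 25 immediate early genes, 6 rose and 1 fell, with a median change of 0.19 that was -0.52 with oil replicate 1. Nr4a1, an orphan nuclear receptor induced by receptor signalling, was at 1.48, 2.13 and 1.54 after TCDD against 0.13 and -0.07 after oil. Every TCDD array was above both oil arrays, and the change was 1.69 (SE 0.25, adjusted p = 0.00166), passing in all 5 leave-one-out fits and with slide as a block. Oil replicate 1 was at 4.46, and with it the change was 0.21 (adjusted p = 0.88). Egr2 rose by 1.52 (adjusted p = 0.00771, but 0.71 and not passing with oil replicate 1), Klf4 by 1.26 (adjusted p = 0.014), Jund by 1.25 (adjusted p = 0.03) and the small MAF gene Maff by 1.12 (adjusted p = 0.00934). The AP-1 subunit Fosl2 fell by 1.24 (adjusted p = 0.0187), and Egr1 at 0.12 did not pass (adjusted p = 0.908). Cd69, an early activation antigen of lymphocytes, was at 1.99, 2.33 and 1.84 after TCDD against 0.04 and -0.42 after oil. It rose by 2.24 (SE 0.50, adjusted p = 0.0126), but with oil replicate 1, itself at 3.80, the change was 0.91 (adjusted p = 0.46).

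Of 13 glucocorticoid and metallothionein genes, the metal-binding Mt2 rose by 0.87 (adjusted p = 0.0468) and the transcription factor Cebpd fell by 1.03 (adjusted p = 0.0198). Of 17 clock genes, whose median change was -0.25 and 0.25 with oil replicate 1, 3 fell: Tef by 0.83 (adjusted p = 0.0138), Per2 by 0.80 (adjusted p = 0.0281) and Nfil3 by 0.57 (adjusted p = 0.0297). Of 28 interferon-stimulated genes, Oas2, an antiviral oligoadenylate synthetase, fell by 0.78 (adjusted p = 0.0465). None of these list members passed with slide as a block. Over all genes 4.58% were called higher and 7.8% lower, and the glucocorticoid and interferon counts are near these shares.

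Among 30 p53 target genes, 3 rose and 5 fell. The BH3-only death genes Pmaip1 and Bbc3 rose by 1.04 (adjusted p = 0.0128) and 0.75 (adjusted p = 0.00896), and the stress cytokine Gdf15 rose by 0.95 (adjusted p = 0.0145). Ccng1, cyclin G1, was at -0.59, -0.44 and -0.86 after TCDD against 0.12 and 0.56 after oil. All TCDD arrays lay below both oil arrays, and it fell by 0.97 (SE 0.17, adjusted p = 0.00427), while another Ccng1 probe gave -0.10. The lesion-bypass polymerase Polk fell by 1.15 (adjusted p = 0.00327) by its brightest probe, with another probe at 0.43, and the ribonucleotide reductase subunit Rrm2b by 1.08 (adjusted p = 0.00999). Polk and Rrm2b each cleared background on 2 of 3 TCDD arrays.

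Apaf1, the scaffold of the apoptosome, was at -1.16, -0.58 and -1.10 after TCDD against -0.05 and 1.21 after oil. It fell by 1.52 (SE 0.33, adjusted p = 0.012), and the initiator caspase Casp9 that it activates fell by 0.60 (adjusted p = 0.0213). Ccng1, Polk and Apaf1 also passed with slide as a block, from processed signals and with oil replicate 1. Without oil replicate 3 none of these did, with changes of -0.75 for Ccng1, -1.08 for Polk and -0.89 for Apaf1. Cdkn1a, the p21 cell cycle inhibitor, changed by -0.30 (adjusted p = 0.465) and Mdm2, the p53 ligase, by 0.04 (adjusted p = 0.869).

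Of 26 measured erythroid genes, 5 were called higher and 1 lower, and 3 of the 5 were saturated globin genes. Hbb-bt, an adult beta globin, was at 1.91, 1.61 and 1.70 after TCDD against -0.31 and 0.55 after oil. Its Cy5 signal was saturated on all 5 arrays, and its Cy3 signal on 2 of 3 TCDD arrays and both oil arrays. The near-identical alpha globin genes Hba-a1 and Hba-a2 were saturated in Cy5 on all 5 arrays and in Cy3 on both oil arrays and no TCDD array. With Cy3 saturated on every oil array, these log ratios give no fold for the globins, and their calls are not read here as rises. With oil replicate 1 none of the 3 passed, and the median of the 26 genes was -0.79 in place of 0.16. The 20 erythroid genes with no saturated spot had a median change of 0.07, with 2 higher and 1 lower. The tight-junction protein gene Cldn13 rose by 0.48 (adjusted p = 0.0381), and the erythroid and megakaryocyte factor Nfe2 fell by 0.69 (adjusted p = 0.00894). Gata1, the master factor of both lineages, at 0.08 (adjusted p = 0.76), did not pass, nor did Alas2, the first enzyme of heme synthesis in red cells, whose Cy5 signal was saturated on 2 TCDD arrays.

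Megakaryocyte and platelet genes fell where they passed. Of 22 measured genes, 6 fell and none rose (median change -0.53). Ppbp, a platelet granule chemokine, was at -1.17, -0.60 and -0.04 after TCDD against 1.65 and 1.31 after oil. The TCDD arrays all lay below the oil arrays, and it fell by 2.08 (SE 0.44, adjusted p = 0.0105). Oil replicate 1 was at 1.80, and with it the change was -2.19 (adjusted p = 0.0086). The triggering receptor Treml1 fell by 1.28 (adjusted p = 0.0227), the lipoxygenase Alox12 by 1.24 (adjusted p = 0.0115) and multimerin Mmrn1 by 1.02 (adjusted p = 0.0128). The von Willebrand factor receptor subunits Gp1ba and Gp5 fell by 0.93 (adjusted p = 0.0451) and 0.84 (adjusted p = 0.0309). Pf4, another platelet chemokine, at -0.53 (adjusted p = 0.38) and the integrin Itga2b at -0.71 (adjusted p = 0.0952) did not pass. None of the 22 passed with slide as a block or without oil replicate 3.

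Granulocyte genes that passed were lower. Of 18 eosinophil, basophil and mast cell genes, 4 fell: Epx, Ear1, Ear6 and Il5ra. Eosinophil peroxidase Epx was at -1.05, -1.30 and -0.94 after TCDD against 0.13 and 0.40 after oil, a fall of 1.36 (SE 0.26, adjusted p = 0.00694). The eosinophil ribonuclease genes Ear1 and Ear6, near-identical copies, were both called lower. Ear6 fell by 1.22 (adjusted p = 0.0146), and the Cy5 signal of Ear1 was saturated on all 3 TCDD arrays and on no oil array, so its size is not given. Of 23 neutrophil genes, 3 fell (median change -0.35, and -1.71 with oil replicate 1). The transcription factor Gfi1 fell by 0.73 (adjusted p = 0.0257), the formyl peptide receptor Fpr1 by 0.79 (adjusted p = 0.0296) and the resistin-like Retnlg by 1.31 (adjusted p = 0.0375). The granule protease Elane at -0.60 (adjusted p = 0.198) did not pass. The 15 neutrophil genes with no saturated spot had a median change of -0.53. None of these genes passed with slide as a block or without oil replicate 3.

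Of 32 monocyte and macrophage genes, 2 rose and 2 fell, a share near that of all genes (4.58% higher and 7.8% lower). The complement gene C1qb of resident macrophages was at 0.82, 1.01 and 0.98 after TCDD against 0.15 and -0.05 after oil. It rose by 0.88 (SE 0.15, adjusted p = 0.00336) and passed with slide as a block, from processed signals and with oil replicate 1. Without oil replicate 3 its change of 0.78 did not pass. The haemoglobin scavenger receptor Cd163 rose by 0.98 (adjusted p = 0.014). The lysozyme gene Lyz1 fell by 0.94 (adjusted p = 0.0284) and the chemokine receptor of blood monocytes, Ccr2, fell by 0.95 (adjusted p = 0.0285).

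Among 22 pan-B and mature B cell genes, 4 fell and 1 rose (median change -0.32, and -0.97 with oil replicate 1). The Fc-receptor-like Fcrla fell by 1.20 (adjusted p = 0.0272), the antigen receptor subunit Cd79a by 0.95 (adjusted p = 0.0386), the transcription factor Spib by 0.90 (adjusted p = 0.0287) and Ralgps2 by 0.68 (adjusted p = 0.0261). The complement receptor Cr2 rose by 1.10 (adjusted p = 0.0169). Of 23 pro-B and pre-B genes, 4 fell and 1 rose. Vpreb3, which assists the pre-B receptor, was at -0.17, -0.32 and -0.89 after TCDD against 0.54 and 0.45 after oil, a fall of 0.95 (SE 0.25, adjusted p = 0.023). Bst1 fell by 0.60 (adjusted p = 0.0322) and the recombinase gene Rag2 by 0.39 (adjusted p = 0.0372). Rag2 was well above background on no TCDD array and 1 oil array (1.18-fold lower in Cy3, not a strict bound). Processed Cy3 alone gave a Rag2 change of -1.91, which did not pass. Pax5, the B lineage factor, passed as a rise of 0.57 (adjusted p = 0.039) while well above background on 1 TCDD and 1 oil array. For Pax5, processed Cy3 alone gave -0.46. No member of either list passed with slide as a block or without oil replicate 3.

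Cd38, an ectoenzyme of lymphocytes and other blood cells, was at -0.60, -0.48 and -1.49 after TCDD against 0.56 and 1.34 after oil. It fell by 1.81 (SE 0.32, adjusted p = 0.00395), also with slide as a block and with oil replicate 1, though not without oil replicate 3 (-1.42). Of 22 stem and progenitor genes, 3 fell: the SLAM family gene Cd48 by 1.00 (adjusted p = 0.0046), the factor Myb by 0.66 (adjusted p = 0.0249) and Slamf1 by 0.56 (adjusted p = 0.0399). Slamf1 was well above background on 2 TCDD arrays and 1 oil array, and passed in only 1 of 5 leave-one-out fits. Gapt, which binds the adaptor Grb2, was at -1.36, -1.39 and -1.53 after TCDD against -0.43 and 0.53 after oil, a fall of 1.47 (adjusted p = 0.00272).

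Of 24 T and NK cell genes, 4 rose and 1 fell. Cd3e, a T cell receptor chain, rose by 1.47 (adjusted p = 0.0306), the factor Tbx21 by 1.19 (adjusted p = 0.0138), the protease Gzmb by 1.16 (adjusted p = 0.0126) and the cytokine receptor Il2rb by 0.73 (adjusted p = 0.022). The kinase Zap70 fell by 0.75 (adjusted p = 0.0254). None of the 24 passed with oil replicate 1, with slide as a block or without oil replicate 3. No member of 11 MHC class II and 16 dendritic cell genes passed in the fit as reported.

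Of 27 stroma and bone genes, 5 fell and none rose (median change -0.59, and -0.18 with oil replicate 1), and 10 of the 27 were well above background on all 5 arrays. Spp1, osteopontin, was at -1.74, -1.07 and -1.39 after TCDD against 0.04 and -0.22 after oil, with oil replicate 1 at -0.05. All TCDD arrays lay below all 3 oil arrays, and it fell by 1.31 (SE 0.18, adjusted p = 0.00124). This call held in all 5 leave-one-out fits, with slide as a block (adjusted p = 0.0182), from processed signals and with oil replicate 1. The endothelial cadherin Cdh5 fell by 1.39 (adjusted p = 0.00861, but -0.18 and not passing with oil replicate 1) and the endothelial adhesion molecule Pecam1 by 0.42 (adjusted p = 0.0473). Lepr, the leptin receptor of stromal cells, fell by 0.67 (adjusted p = 0.016) while well above background on no TCDD array and 1 oil array. In Cy3 it was 1.12-fold lower, which is not a strict bound, and processed Cy3 alone gave a change of -2.21 that did not pass. Igfbp5 fell by 1.19 (adjusted p = 0.0393) by its brightest probe, but another probe gave 0.78, so its direction is uncertain.

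Of 79 cytosolic ribosomal protein genes, 32 were called higher and 2 lower, with a median change of 0.33, and most of these calls rest on saturated probes. A saturated spot was present on the 5 arrays for 45 of the 79 genes, and 31 of the 32 higher calls were among them. The 34 genes with no saturated spot had a median change of -0.10, with 1 called higher and 2 lower. Rpl41 was at 0.53, 0.68 and 0.79 after TCDD against -0.48 and -0.56 after oil, and its Cy5 signal was saturated on all 3 TCDD arrays and 1 oil array. Rps16 and Rps14 were saturated in Cy5 on all 5 arrays, and Rpl32 in Cy5 on all 3 TCDD arrays and 1 oil array. Sizes are therefore not read from these genes. With oil replicate 1 none of the 79 was called higher, 1 was lower and the median was -0.20. Rpl24 fell by 0.57 (adjusted p = 0.0153) and Rps9 by 0.52 (adjusted p = 0.0252), and probes of this family may also read processed pseudogenes.

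Of 33 G2 and mitosis genes, 6 fell and 1 rose (median change -0.27, and -1.23 with oil replicate 1). The mitotic kinase Plk1 fell by 0.63 (adjusted p = 0.0234), the kinase Cdk1 by 0.43 (adjusted p = 0.0354) and the cytokinesis protein Anln by 0.95 (adjusted p = 0.043), while Cks2, which binds Cdk1, rose by 0.74 (adjusted p = 0.0214). Of 30 S phase genes 2 fell, a share near the 7.8% lower over all genes. The chromatin remodeller Hells was at -0.39, -0.60 and -0.78 after TCDD against 0.12 and 0.71 after oil and fell by 1.00 (SE 0.19, adjusted p = 0.00629). The nuclease Exo1 fell by 0.75 (adjusted p = 0.00658). Only Hells of these named genes passed with slide as a block, and without oil replicate 3 none did.

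Lipid synthesis genes fell at 4 of 24 members and rose at 1. Fatty acid synthase Fasn fell by 0.86 (adjusted p = 0.00849), the desaturase Scd2 by 1.04 (adjusted p = 0.00754) and the sterol demethylase Cyp51 by 0.67 (adjusted p = 0.048). The elongase Elovl6 rose by 0.85 (adjusted p = 0.0482). Of 39 respiratory chain genes 2 were called higher, a share near the 4.58% over all genes. Cox8a rose by 0.48 (adjusted p = 0.0459). Cox6a1 was called higher too, with Cy5 saturated on all 5 arrays and Cy3 on 1 oil array. Of 18 liver genes, Mup1 rose by 0.81 (adjusted p = 0.0264) and Apob by 0.64 (adjusted p = 0.0499). Apob was well above background on no TCDD array and 1 oil array, and processed Cy3 alone gave -2.83. None of 14 skeletal muscle genes passed.

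**Figure D4:**
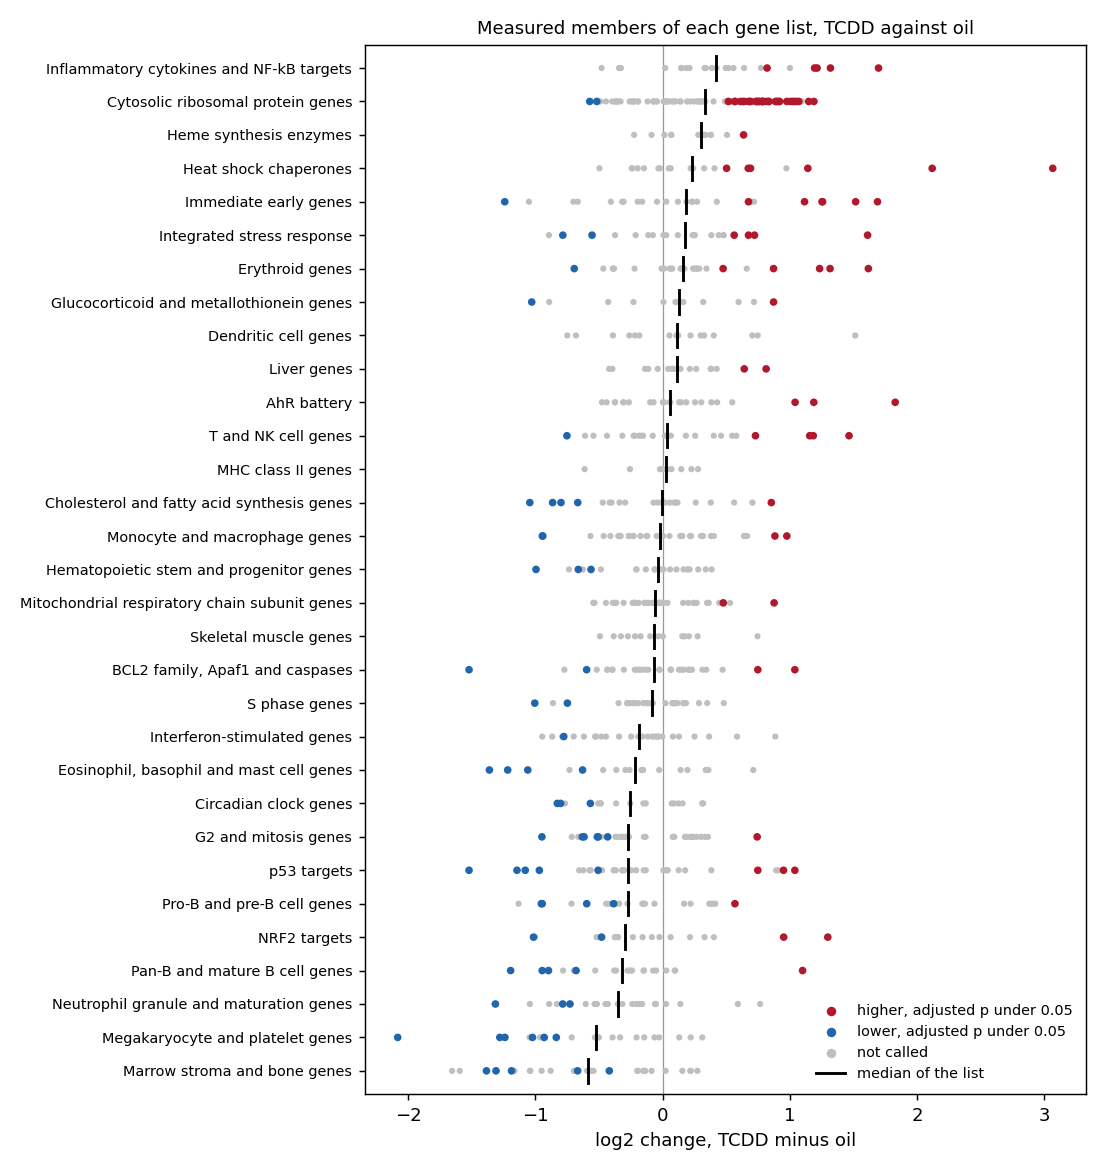
For each gene list, the change of every measured member (log2, TCDD minus oil) with the list's median as a bar, red where higher and blue where lower at an adjusted p under 0.05, beside a median of 0.01 over all 24389 genes tested. The ribosomal protein genes have a median of 0.33, with saturated spots in 45 of 79, and the stroma and bone genes -0.59.

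A stricter group of genes passed in 4 fits at once: as reported, with slide as a block, from processed signals and with oil replicate 1. All 4 fits use the same TCDD arrays on their one slide, so passing them does not tell TCDD from the slide. The group held 15 genes higher after TCDD (0.0615% of genes tested) and 154 lower (0.631%), and 71 of these 169 also passed in all 5 leave-one-out fits. Besides Hspa1b, Chac1, Osgin1 and C1qb, named above, the higher ones included genes chosen after their values were seen. Among them were the linker histone gene H1f0 and the phosphatase Dusp4. H1f0 was at 1.42, 1.19 and 1.16 after TCDD against 0.13 and -0.31 after oil, a rise of 1.35 (adjusted p = 0.000443) that passed in all 5 leave-one-out fits. The glutathione peroxidase gene Gpx1 was also in the group, with its Cy5 signal saturated on all 5 arrays. The lower ones included Uba6, an activating enzyme of the ubiquitin system, at -1.14, -1.20 and -1.20 after TCDD against 0.31 and 0.55 after oil. Uba6 fell by 1.61 (adjusted p = 2.21e-06), passed in all 5 leave-one-out fits and cleared background on 2 of 3 TCDD arrays.

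Against DMBA, which shares the same 12 hours, 2834 of 24385 genes passed (11.6%), 872 higher after TCDD (3.58%) and 1962 lower (8.05%). Blocking on slide, 434 passed (1.78%), 133 higher (0.545%) and 301 lower (1.23%). Leaving out one array gave between 1192 (without DMBA replicate 3) and 3379 genes, with 1498 without TCDD replicate 1, 1512 without DMBA replicate 1 and 1696 without DMBA replicate 2. Fitting oil replicate 1 as well, which alters the shared error estimate, left 417. The TCDD arrays share no slide with the DMBA arrays. Over all genes, 16.2% lay higher on all TCDD than all DMBA arrays, and 18.6% lay lower. In the AhR battery none of the 24 genes was higher and 2 were lower after TCDD than after DMBA: the NRF2 gene Nfe2l2 by -0.61 (adjusted p = 0.0097) and the serpin Serpinb2 by -0.90 (adjusted p = 0.032). Neither passed with slide as a block (adjusted p = 0.0846 and 0.1345). Cyp1a1 differed by -0.52 (SE 0.21, adjusted p = 0.107), and the DMBA arrays were at 1.96, 1.81 and 1.92.

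The p53 targets stood lower after TCDD than after DMBA at 10 of 30 genes and higher at 1, Gdf15 (0.75, adjusted p = 0.021). Ccng1, at -0.59, -0.44 and -0.86 after TCDD, was at 1.07, 0.96 and 1.45 after DMBA, a difference of -1.79 (SE 0.15, adjusted p = 1e-05). Phlda3, a p53-induced inhibitor of Akt, was at -0.61, -0.36 and 0.27 after TCDD against 1.63, 1.64 and 1.57 after DMBA, a difference of -1.85 (SE 0.22, adjusted p = 0.000193). No array of one group reached the other for either gene, and both passed with slide as a block. Cdkn1a differed by -1.03 (adjusted p = 0.012), the RNA-binding Zmat3 by -1.14 (adjusted p = 0.00055), Apaf1 by -1.31 (adjusted p = 0.01) and the death receptor Fas by -0.57 (adjusted p = 0.018).

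Other stress genes set the treatments apart too. Hspa1a, at 3.16, 3.15 and 2.58 after TCDD, was at 0.18, 0.24 and -0.48 after DMBA, a difference of 2.98 (SE 0.40, adjusted p = 0.000381). Of the 20 heat shock genes 7 were higher after TCDD than after DMBA and none lower, among them Hspa1b (2.24, adjusted p = 0.000896) and Hsph1 (1.42, adjusted p = 0.016). The 7 include Hsp90aa1, whose Cy5 signal was saturated on all 3 TCDD arrays and on no DMBA array. Nr4a1 was at 0.15, 0.18 and 0.28 after DMBA, and TCDD marrow stood 1.51 above it (adjusted p = 0.00067). Cd69 stood 1.97 above DMBA (adjusted p = 0.00976), though with slide as a block its adjusted p was 0.0556. Fos, the AP-1 subunit, was lower after TCDD, at -0.78, 0.15 and -1.08 against 0.71, 0.49 and 1.84 after DMBA, a difference of -1.58 (adjusted p = 0.0194, and 0.0895 with slide as a block).

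Red cell genes were higher after TCDD than after DMBA at 12 of 26 members and lower at 1, Nfe2 (-0.62, adjusted p = 0.0056). Of the 12 higher calls, 4 had a saturated spot on these 6 arrays and 8 had none. Car1, erythroid carbonic anhydrase, was at 0.14, 0.55 and 0.77 after TCDD against -0.90, -0.85 and -1.53 after DMBA, a difference of 1.58 (SE 0.20, adjusted p = 0.000224). Gata1 differed by 0.52 (adjusted p = 0.019), the factor Klf1 by 0.55 (adjusted p = 0.025) and the erythropoietin receptor Epor by 0.78 (adjusted p = 0.007). Of 12 heme synthesis genes, 7 were higher and none lower, including Alad (0.92, adjusted p = 0.0016), which makes porphobilinogen. The platelet list was lower at 6 of 22 genes, led by Ppbp at 1.62, 1.53 and 0.80 after DMBA (difference -1.92, adjusted p = 0.00582). Ppbp did not pass with slide as a block (adjusted p = 0.0879).

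Spp1 gave the smallest adjusted p among the genes named for TCDD against DMBA. It was at -1.74, -1.07 and -1.39 after TCDD against 0.66, 0.73 and 0.71 after DMBA. The groups lay far apart, with a difference of -2.10 (SE 0.16, adjusted p = 6.68e-06), and 0.000343 with slide as a block. The cytoskeletal septin gene Septin8 was higher after TCDD, at 0.87, 0.63 and 1.48 against -0.66, -0.44 and -1.31 after DMBA (1.80, adjusted p = 0.000501). The chromatin protein gene Dek was at 1.64, 1.61 and 1.67 after TCDD against 0.13, 0.27 and -0.05 after DMBA (1.52, adjusted p = 0.000939). Gapt was lower by -1.64 (adjusted p = 0.000334), at -0.10, 0.13 and 0.62 after DMBA, and the lipid receptor Lpar6 was lower by -1.59 (adjusted p = 0.000193).

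**Figure D5:**
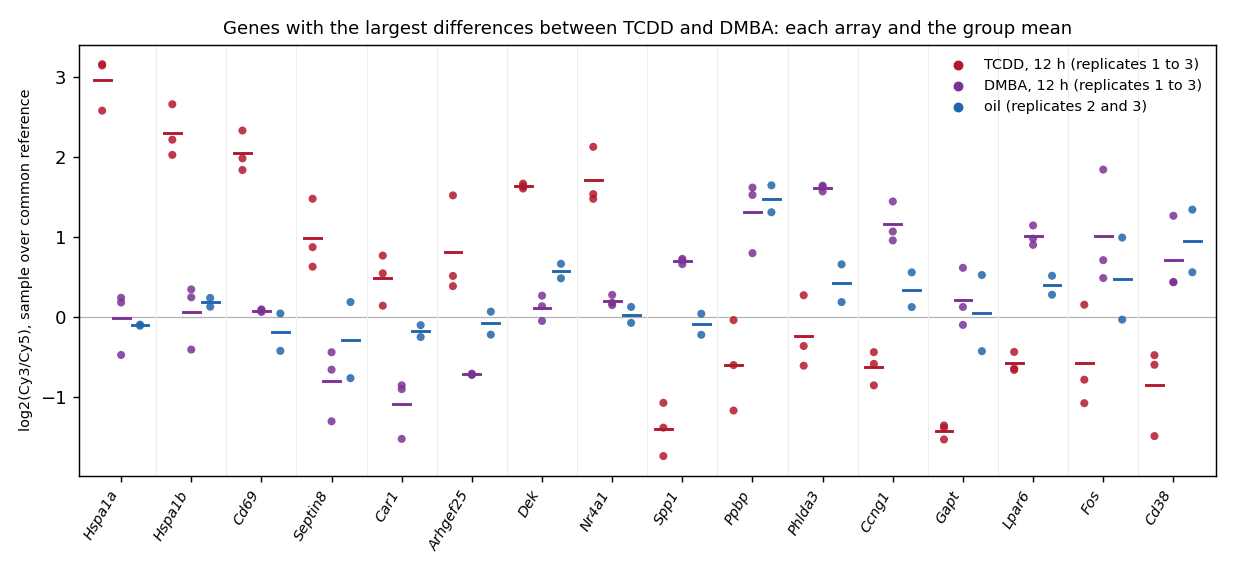
Log2 of Cy3 over Cy5 for the genes with the largest differences between TCDD and DMBA, one point per array with the group mean as a bar, in the order TCDD, DMBA and oil replicates 2 and 3. Spp1 lies between -1.74 and -1.07 on the TCDD arrays and between 0.66 and 0.73 on the DMBA arrays.

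The comparisons with oil and with DMBA share the TCDD arrays, so their values are not independent. Dim genes could be compared only by bounds: 28 genes were well above background on all 3 TCDD arrays and on neither oil array, and 143 the other way round. These bounds are of Cy3 with the dimmer group set no lower than the background limit, and are not bounds on the tested log ratios. Plekhg4, a guanine nucleotide exchange factor, changed by 0.80 in log ratio (adjusted p = 0.0281) and was at least 3.00-fold higher in Cy3. Speer4b changed by 1.02 in log ratio (adjusted p = 0.0269) and was at least 2.62-fold higher in Cy3. The log ratio of Klra5 changed by 0.72 and did not pass (adjusted p = 0.0946).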

How the data were processed

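The deposited files hold one 2-colour Agilent array each as scanner intensity, per the file headers from Feature Extraction. The authors' deposited table of log2 differences between groups was used only for comparison, and its TCDD column lists 3 wild-type control arrays. Across 24389 genes its TCDD minus oil values correlated with r = 0.794 with the fit reported and 0.929 with the processed-signal fit. Both of these fits use oil replicates 2 and 3 only. The r was 0.496 with the fit that includes oil replicate 1. Limma is named in the submitters' processing notes, with a version not given in the sources used here. Mean signals were background-corrected (normexp, offset 50), loess-normalised within arrays and fitted with limma 3.58.1 in R 4.3.3 over 23 arrays in 10 groups, with oil replicate 1 left out. Normexp parameters were fitted on unflagged spots, a choice made after seeing the background: on TCDD replicates 1 and 2, flagged spots down to -65180 below background had raised the signal floor. Control and outlier spots were dropped, saturated spots were kept, and a probe had to be well above background on at least 3 arrays. The brightest probe stood for a gene. Of 41174 probes, 24844 were named by accession, 6045 by symbol and 1810 by synonym in RefSeq's table, and 8475 kept the file's name. Members and gene lists were chosen with earlier results of these data known. Named genes were the AhR battery, the 15 largest called changes and 8 largest TCDD minus DMBA differences each way, the top 4 called members of each list, and genes above background in one group alone. These largest changes had to be free of overlap, above background on all arrays and of one sign in 3 fits. Other list members named were chosen after their values were seen. The number of arrays limits the precision. Some list members are not reported here.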

Additional observations from a re-analysis of the deposited data

Results flagged for a closer look

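On oil replicate 1, the 18 liver genes stood at a median percentile of 99.8 of Cy5 signal, the channel of the common reference pool, and of 94.8 of Cy3 signal. On the other 23 arrays their highest median percentiles were 44.6 for Cy5 and 45.8 for Cy3. The array is outside the oil group used in the comparisons, and the source of these transcripts was not tested.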

How the results depend on the processing

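The number of genes called for TCDD against oil (3021) was 1408 with oil replicate 1, 278 with slide as a random block, 367 without TCDD replicates 1 and 2, and 205 to 4052 when one array was left out. Fitting only the groups compared called 0 with limma, with 3952 genes at an unadjusted p under 0.05. With alternatives chosen after seeing the data, normexp on all spots called 1505, processed signals with oil replicate 1 called 805, and slide as a block with oil replicate 1 called 0 with limma, with 1351 at an unadjusted p under 0.05 and a correlation of 0.691. The number for TCDD against DMBA (2834) was 417 with oil replicate 1, 434 with slide as a block, 1399 with only the groups compared, 723 without TCDD replicates 1 and 2, 6641 from Cy3 alone, and 1192 to 3379 when one array was left out. It was 1534 with normexp on all spots, 0 with slide as a block and oil replicate 1 (876 at an unadjusted p under 0.05), 141 from processed signals with oil replicate 1, and 5932 from Cy3 alone with oil replicate 1. The cause of these changes was not tested.

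Higher genes made up 37.0% of calls against oil, 47.7% from processed signals, 20.1% with oil replicate 1 and 45.8% from Cy3 alone, which moved the median of all genes to -0.33. The replicate block called 2741 genes against oil and 3665 against DMBA. Same-numbered arrays did not deviate together (r = -0.126 to -0.0202). This gave no sign of pairing by number, but it cannot show that samples were not collected in matched sets. Scan date was not run as a block because it equals slide, and Aquantile scaling leaves log ratios as they are.

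These TCDD minus oil values took the opposite sign. With oil replicate 1 they were 0.47 for Prdx1, -0.30 for Pmaip1, -0.0229 for Tnf, 0.28 for Tef, -0.29 for Il2rb, -0.47 for Cks2, 0.0748 for Fasn and 0.46 for Cyp51. With slide as a block and oil replicate 1 they were 0.34 for Prdx1, -0.14 for Pmaip1, 0.11 for Tef, -0.23 for Il2rb, -0.32 for Cks2 and 0.26 for Cyp51. From processed signals with oil replicate 1 they were 0.56 for Prdx1, -0.44 for Pmaip1, -0.10 for Tnf, 0.42 for Tef, -0.43 for Il2rb, 0.18 for Zap70, -0.30 for Cks2, 0.30 for Fasn and 0.79 for Cyp51. Cy3 alone gave -0.46 for Pax5 and -2.83 for Apob. With oil replicate 1, Cy3 alone gave 0.0157 for Cd79a, -0.0282 for Pax5, 0.0418 for Nfe2, 0.14 for Cdk1, -0.73 for Mup1 and -2.95 for Apob. Of the 123 named calls against oil, 100 passed in the same direction from processed signals, 113 with the replicate block, 55 with oil replicate 1 and 30 with slide as a block.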
